A study of Mus musculus with 18 samples.

Results

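The genes described here are 35 genes of the antioxidant response of mouse eosinophils, namely the transcription factor gene *Nfe2l2* (NRF2), its inhibitor *Keap1*, and genes of haem breakdown and iron storage, glutathione, thioredoxin, peroxiredoxins, superoxide and peroxide removal, and NADPH supply. They were chosen as a named list of symbols, with earlier results of these data known, and each symbol matched 1 Ensembl gene of the 55029 or 54232 genes that a file lists. The RNA came from peritoneal eosinophils of C57BL/6 mice that carry the *Il5* transgene NJ.1638, purified by removing cells that bind antibodies to Thy1.2 or B220, so that every group shares the transgene and other peritoneal cells could remain. The paper set a minimum purity, measured by flow cytometry, and describes the contaminating cells as mostly lymphocytes. All stimuli were given for 18 h in culture. They were IL-4 at 100 ng/ml, IFN-γ at 50 ng/ml, heat-inactivated *E. coli*, or IFN-γ at 50 ng/ml together with the heat-inactivated *E. coli*. Each of the 4 stimuli had 3 libraries, and cells without a stimulus had 6. No time in culture is stated for the cells without a stimulus. By their layout the files fall into a 12-library set, which holds unstimulated a to c and the *E. coli*, IFN-γ and combined libraries, and a 6-library set, which holds unstimulated d to f and the IL-4 libraries. The labels do not say whether libraries of a group came from separate mice or cultures, so p-values measure only the spread between these libraries, which may be technical.

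NRF2 is a transcription factor that is held in the cytoplasm by KEAP1 and marked there for degradation. Electrophiles and oxidants modify KEAP1, NRF2 then reaches the nucleus, pairs with small MAF proteins and binds antioxidant response elements near genes that make glutathione, recycle thioredoxin, break down haem and supply NADPH. Because NRF2 is mainly regulated as a protein, its own RNA level is a poor guide to its activity. Eosinophils make large amounts of superoxide with the NADPH oxidase, which draws on the same NADPH that glutathione reductase and thioredoxin reductase use.

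Promoter sequences (250 bases before to 50 after the start of transcription, RefSeq, GRCm38.p6) were at hand for 31 of the 35 genes, with none for *Gclc*, *Gsr*, *Hmox1* and *Prdx6*. They were searched on both strands for TGACNNNGC, the core of the antioxidant response element. It was present in 10 of these 31 genes (32.3%), against 14% of the 27025 genes with such a sequence. The genes were *Nfe2l2*, *Gclm*, *Mgst1*, *Txnrd1*, *Srxn1*, *Prdx1*, *Sod1*, *G6pdx*, *Pgd* and *Me1*. A match is a description of letters and not a site shown to be bound. The motifs of 4 of these 10 genes are shown as examples, without a rule that sets them apart from the other genes with a match. Each is given on the strand that carries the motif, with the motif in capitals, to let the core and its surroundings be compared.
*Prdx1*, chr4:116685456-116685484, minus strand: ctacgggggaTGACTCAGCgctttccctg
*Me1*, chr9:86695902-86695930, minus strand: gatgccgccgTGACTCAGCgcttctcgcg
*G6pdx*, chrX:74428919-74428947, plus strand: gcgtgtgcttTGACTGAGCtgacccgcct
*Txnrd1*, chr10:82859104-82859132, minus strand: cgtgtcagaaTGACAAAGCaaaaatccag
In *Prdx1* and *Me1* the match is the same 9 bases and also contains TGACTCA, the motif of AP-1, so that the letters do not tell the factors apart. The motif began 133 bases before the start of *Prdx1* and 92 before that of *Txnrd1*, both on the strand opposite to the gene.

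The counts in the 12-library set totalled 1523808 to 2734041 per library and those in the 6-library set 3625036 to 6482289. In the former no gene reached 4096 counts, the number of sequences of 6 bases, and the highest gene held 4089 to 4095 in each library. Whether molecular identifiers were collapsed is not given in the sources used here. In the 6-library set the highest gene held 87377 to 191131 counts. Of the 35 genes, 9 passed 50% of that number in some library (*Fth1*, *Gpx1*, *Prdx5*, *Prdx1*, *Hmox1*, *Txn1*, *Taldo1*, *Gpx4* and *Gsr*). A conversion that takes 4096 as an upper limit of the counts (a ceiling) was run as an alternative. Against unstimulated cells it gave 12 higher and 4 lower genes with *E. coli*, 20 and 3 with IFN-γ, and 24 and 6 in the combined libraries. Of all genes it called 31.2%, 32% and 49.3%, higher and lower together. It added the calls of *Fth1*, *Txn1* and *G6pdx* with *E. coli*, of *Fth1* with IFN-γ, and of *Taldo1* and *Tkt* in the combined libraries, and ended that of *Gsr* with IFN-γ. Whether the counts have such a limit was not tested. The eosinophil genes *Siglecf*, *Ccr3*, *Il5ra*, *Prg2* and *Ear6* were counted above 3 in every library, whereas the granule protein genes *Epx* and *Prg3* were at 0 to 4 counts in the 12-library set. Of the 5 eosinophil genes tested in that set 1 rose and 2 fell with *E. coli*, 4 fell with IFN-γ, and 1 rose and 3 fell with both, with *Siglecf* at means of 1020 CPM without a stimulus, 636 with *E. coli*, 626 with IFN-γ, and 348 in the combined libraries. Of the 9 tested in the 6-library set 4 rose and 1 fell with IL-4, with *Siglecf* at 925 against 707 CPM. The 1 that fell was *Ccr3*, at 1300 against 2150 CPM. In the 12-library set *Ccr3* was not called, at means of 1430, 1310, 1610 and 1530 CPM in the same order as *Siglecf*. All 9 eosinophil genes summed to 2450 to 3110, 2010 to 2200, 2160 to 2650 and 1930 to 2170 CPM there. In the 6-library set these genes summed to 2760 to 3660 CPM without and 2660 to 2800 CPM with IL-4. Their part in the results was not tested. Levels are given as CPM, a gene's counts relative to its library's normalised total, and are not comparable between the sets.

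**Figure D1:**
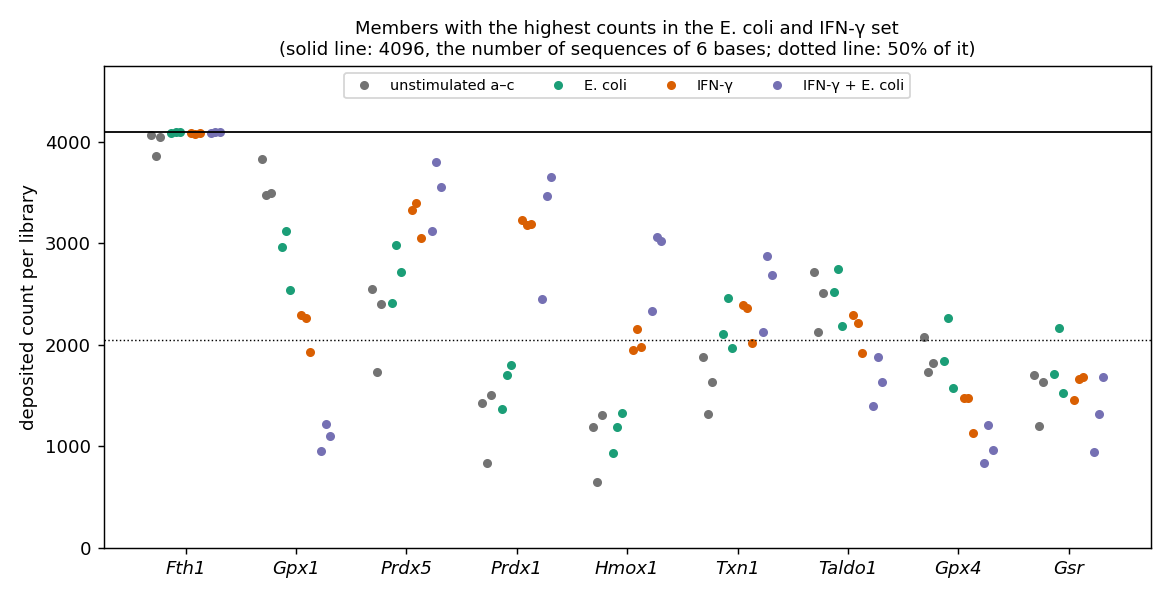
Deposited counts per library (y axis) of the 9 genes that passed 50% of 4096 in some library of the 12-library set, with 3 points for each group. *Fth1* lies at 3865 to 4094 in all groups, whereas *Gpx1* falls away from the line and *Prdx1*, *Prdx5* and *Hmox1* approach it with IFN-γ and with both stimuli.

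The tested antioxidant genes mostly rose with IFN-γ, alone or together with *E. coli*, and 18 of 35 fell with IL-4. With IFN-γ 20 of 34 tested genes rose and 3 fell (edgeR quasi-likelihood test, adjusted p under 0.05 over all genes), where 15.6% of all genes rose and 16% fell. With IFN-γ and *E. coli* 24 rose and 4 fell, against 23.9% and 25.2% of all genes. With *E. coli* alone 9 rose and 4 fell, against 13.5% and 16.7%. With IL-4 1 of 35 rose and 18 fell, against 5.97% and 4.35%. The median log2 fold change of the tested genes was 0.12 with *E. coli*, 0.64 with IFN-γ, 0.72 with both and -0.74 with IL-4, where the median of all genes lay between -0.04 and 0. *Gpx3* did not pass the filter on low counts in the 12-library set, where it had 2 to 17 counts. On leaving out any 1 library of the compared groups, 8 of 13 calls were kept with *E. coli*, 17 of 23 with IFN-γ, 24 of 28 with both and 14 of 19 with IL-4.

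**Figure D2:**
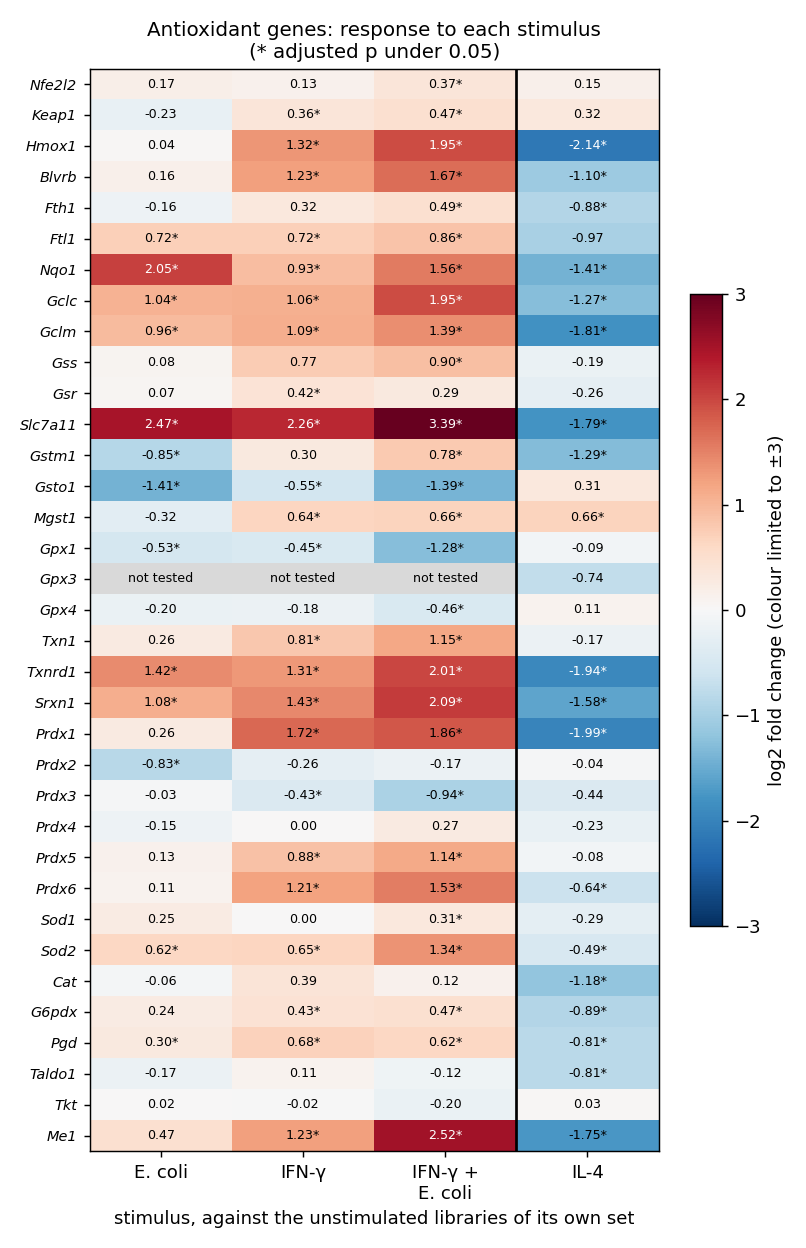
Log2 fold change (colour and number) of each of the 35 genes (rows) with each stimulus (columns) against the unstimulated libraries of its own set, with an asterisk where the adjusted p is under 0.05. The column of IFN-γ with *E. coli* holds 24 rises, with *Slc7a11* at 3.39, and the IL-4 column 18 falls, with *Hmox1* at -2.14.

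Markers of other peritoneal cells moved with some of these groups. The 11 macrophage markers summed to 2750 to 2800 CPM in unstimulated libraries a to c, 1890 to 2760 with *E. coli*, 3490 to 3890 with IFN-γ, and 3210 to 4100 in the combined libraries. Of these markers 5 rose and 1 fell with IFN-γ, 3 rose with both, and 4 fell with *E. coli*. In the 6-library set they summed to 4240 to 5340 CPM without a stimulus and 3130 to 3620 with IL-4, and 6 of 11 fell. Without *Adgre1* and *Lyz2*, which eosinophils also express, the sums were 948 to 1070, 625 to 1000, 1460 to 1550 and 1310 to 1670 CPM in the 12-library set, and 2170 to 2770 CPM without and 1750 to 2020 CPM with IL-4. None of the 11 was at 0 in any whole group. The 6 that fell were *Marco* (mean 195 to 28.6 CPM), *C1qb* (792 to 556), *Vsig4* (35.5 to 21), *Csf1r* (418 to 261), *Adgre1* (738 to 424) and *Lyz2* (1570 to 1020). Of the 5 that did not pass the test, *Timd4* and *Gata6* had means of 88.4 and 16.6 CPM with IL-4 against 61.3 and 10.8 CPM without. Those of *C1qc*, *C1qa* and *Mertk* were 787, 104 and 5.11 CPM with IL-4 against 821, 126 and 6.97 CPM without. The summed 7 neutrophil markers were 12.3 to 19.4 CPM in unstimulated libraries a to c and 45.5 to 129 CPM in the stimulated libraries of that set. Only 2 of the 7 were tested there, *S100a8*, which rose with each stimulus, and *Ly6g*, which rose with IFN-γ and with both. *S100a8* had means of 8.58 CPM in unstimulated a to c and 72.1, 39.2 and 55.1 CPM with *E. coli*, IFN-γ and both. The neutrophil markers not tested had group means of 0 to 3.84 CPM in that set. *E. coli* replicate 3 had the highest neutrophil sum and, among the *E. coli* libraries, the highest macrophage sum, 2760 CPM against 1890 and 2080. Replicate 3 also had the highest macrophage and neutrophil sums of its group with IFN-γ (3890 and 70.6 CPM) and with both (4100 and 101 CPM). The same held with IL-4 (3620 and 24.6 CPM). Without *Adgre1* and *Lyz2* the macrophage sum of IFN-γ replicate 3 was the lowest of its group, at 1460 CPM. The 5 B cell markers summed to 117 to 214 CPM in unstimulated libraries a to c, 39.2 to 75.5 with *E. coli* (5 fell), 58.2 to 98.5 with IFN-γ (4 fell) and 115 to 129 with both (0 called), and to 23.7 to 43.4 CPM in unstimulated d to f and 58.3 to 68.4 with IL-4 (3 rose). The 5 mast cell markers summed to 7.43 to 9.69 CPM in unstimulated a to c and to 35.8 to 70.1 CPM with both, where *Tpsb2* and *Cma1* rose, and *Tpsb2* rose also with IFN-γ. The 6 erythroid markers summed to 45.8 to 76.7 CPM in unstimulated a to c and to 110 to 158 CPM with both, where 3 rose, and 1 fell with IL-4. T cell and dendritic cell markers stayed at sums of 1.3 to 16.1 CPM, with 1 dendritic cell marker higher with IL-4. The part of these cells in the results was not tested, and in RNA of a whole preparation fewer cells of a type and less RNA per cell cannot be told apart.

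The regulators were called higher with both stimuli, and *Keap1* also with IFN-γ alone. *Nfe2l2* was at 226, 208 and 234 CPM without a stimulus and at 275, 281 and 306 CPM with IFN-γ and *E. coli*, without overlap of the groups. This rise of 1.29-fold (log2 fold change 0.37 ± 0.10 SE, adjusted p = 0.00713) was its only call. With IL-4 it was at 154, 164 and 153 CPM against 159, 122 and 143 CPM, overlapping. *Keap1*, the adaptor that marks NRF2 for degradation, was at 90.9, 108 and 102 CPM without a stimulus. It was at 132, 141 and 112 CPM with IFN-γ and at 150, 146 and 119 CPM with both stimuli. All libraries with IFN-γ thus lay above the unstimulated ones, by a log2 fold change of 0.36 ± 0.13 (adjusted p = 0.0391) with IFN-γ alone and of 0.47 ± 0.13 (adjusted p = 0.00569) with both. The former call was lost without unstimulated a or c or without IFN-γ replicate 1 or 2, with an adjusted p of 0.166 at most. Exons of *Keap1* overlap *Gm16754* on the other strand, and whether the counting used strand is not given in the sources used here.

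The genes of haem breakdown rose with IFN-γ, alone and combined, and did not pass the test with *E. coli* alone. *Hmox1* encodes haem oxygenase, which opens the haem ring and frees iron, and *Blvrb* encodes biliverdin reductase B. *Hmox1* was at 442, 409 and 539 CPM without a stimulus, 382, 398 and 653 CPM with *E. coli*, 1090, 1100 and 1290 CPM with IFN-γ, and 1710, 1680 and 2000 CPM with both. The *E. coli* libraries overlapped the unstimulated ones, and the IFN-γ libraries lay above both. The log2 fold change was 0.04 ± 0.17 (adjusted p = 0.898) with *E. coli*, 1.32 ± 0.17 (adjusted p = 8.79e-06) with IFN-γ, and 1.95 ± 0.17 (adjusted p = 3.58e-08) for the combination. With IL-4, *Hmox1* was at 216, 236 and 267 CPM against 1110, 778 and 1280 CPM, a 4.41-fold fall (log2 fold change -2.14 ± 0.18, adjusted p = 9.61e-05) and the largest among the 35 genes. *Blvrb* had the same directions, with log2 fold changes of 1.23 and 1.67 with IFN-γ and with both and of -1.10 ± 0.17 (adjusted p = 0.00279) with IL-4. *E. coli* replicate 3 had the highest macrophage and neutrophil sums of its group, as replicate 3 of the other stimuli did. It was above the other *E. coli* libraries for both genes, with *Blvrb* at 76 CPM against 42.4 and 44.1 CPM.

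The ferritin genes, whose proteins store the freed iron, could be judged only in part. *Fth1* (heavy chain) had 3865 to 4094 counts in the 12-library set, so close to 4096 that its CPM there mainly follow the library total and no change with these stimuli can be read from it. The counts as deposited gave log2 fold changes of -0.16, 0.32 and 0.49, the last called but not without unstimulated a or c or combined replicate 1 (adjusted p of 0.0888 to 0.138). In the 6-library set *Fth1* fell from 10500, 12500 and 13100 CPM to 7140, 6110 and 6370 CPM (log2 fold change -0.88 ± 0.12, adjusted p = 0.00119). *Ftl1* (light chain) rose with each stimulus of the other set, from 325, 432 and 373 CPM to 611, 585 and 663 CPM with *E. coli*, 680, 612 and 562 CPM with IFN-γ and 649, 747 and 643 CPM with both. Its log2 fold changes of 0.72, 0.72 and 0.86 had adjusted p-values of 0.000166, 0.000171 and 1.25e-05. In the 6-library set *Ftl1* had only 7 to 23 counts and did not pass the test (-0.97 ± 0.40, adjusted p = 0.159). Transcripts of 7 other annotated genes share near-identical stretches with *Ftl1*, most of them pseudogenes, so its counts are uncertain.

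*Nqo1*, the quinone reductase most used as a readout of NRF2, rose with each stimulus of the 12-library set, and most with *E. coli* alone. It was at 52.9, 61.5 and 73.5 CPM without a stimulus, 251, 273 and 251 CPM with *E. coli*, 134, 111 and 112 CPM with IFN-γ, and 156, 151 and 249 CPM with both. All stimulated libraries of this set lay above the unstimulated ones, and the *E. coli* libraries above those with both stimuli. It rose 4.13-fold with *E. coli* (log2 fold change 2.05 ± 0.17, adjusted p = 4.99e-08), 1.9-fold with IFN-γ (0.93 ± 0.18, adjusted p = 0.000547) and 2.96-fold with both (1.56 ± 0.17, adjusted p = 6.05e-07). It was the only one of the 34 tested genes called lower with IFN-γ than with *E. coli* (log2 fold change -1.12 ± 0.16, adjusted p = 3.31e-05). With IL-4 it was at 51.7, 51.7 and 42.5 CPM against 106, 167 and 116 CPM, a 2.67-fold fall (log2 fold change -1.41 ± 0.19, adjusted p = 0.00118).

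Cystine uptake and the first step of glutathione synthesis rose with each of the 3 stimuli of their set and fell with IL-4. *Slc7a11* encodes the cystine transporter xCT. It was at 80.9, 87.5 and 123 CPM without a stimulus, 495, 550 and 570 CPM with *E. coli*, 451, 477 and 472 CPM with IFN-γ, and 1080, 1080 and 905 CPM with both, so that every library with both stimuli lay above every library with 1. Its rise was 5.53-fold with *E. coli* (log2 fold change 2.47 ± 0.14, adjusted p = 4.37e-10), 4.80-fold with IFN-γ (2.26 ± 0.14, adjusted p = 7.89e-10) and 10.5-fold with both (3.39 ± 0.15, adjusted p = 1.65e-12), the largest of the 35 genes. With IL-4 it was at 108, 146 and 116 CPM against 511, 406 and 366 CPM (log2 fold change -1.79 ± 0.17, adjusted p = 0.000146).

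*Gclc* and *Gclm* encode the catalytic and the modifier subunit of glutamate-cysteine ligase, the rate-limiting enzyme of glutathione synthesis. *Gclc* was at 52.9, 48.2 and 68.6 CPM without a stimulus, 123, 130 and 96.8 CPM with *E. coli*, 103, 130 and 123 CPM with IFN-γ, and 230, 228 and 204 CPM with both. The log2 fold changes were 1.04 ± 0.15 with *E. coli* and 1.06 ± 0.15 with IFN-γ (adjusted p = 2.74e-05 and 2.52e-05), and with both the change was 1.95 ± 0.15 (adjusted p = 3.13e-09). *Gclm* was at 204, 245 and 262 CPM without a stimulus, 456, 428 and 495 CPM with *E. coli*, 499, 462 and 550 CPM with IFN-γ, and 597, 600 and 666 CPM with both. Its log2 fold changes were 0.96, 1.09 and 1.39, each ± 0.12 (adjusted p = 5.34e-06, 1.05e-06 and 1.77e-08). The RNA of both subunits thus rose, and for neither did an unstimulated library overlap a stimulated one. With IL-4 *Gclc* fell from 72.5, 59.5 and 52.5 CPM to 25.9, 23.6 and 26.7 CPM (log2 fold change -1.27 ± 0.17, adjusted p = 0.0011). *Gclm* fell from 396, 513 and 368 CPM to 116, 137 and 111 CPM (-1.81 ± 0.15, adjusted p = 9.89e-05).

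The later enzymes of the pathway had 1 call each. *Gss*, glutathione synthetase, rose only with both stimuli (log2 fold change 0.90 ± 0.32, adjusted p = 0.0267), from 5.96 to 7.85 CPM to 10.2 to 14.8 CPM. This call was lost without unstimulated a or combined replicate 2 (adjusted p = 0.0932 and 0.117). *Gsr*, glutathione reductase, rose with IFN-γ alone, with a log2 fold change of 0.42 ± 0.16 (adjusted p = 0.0494), lost without IFN-γ replicate 3 (0.30, adjusted p = 0.227), unstimulated a or c, or on conversion for the ceiling. Neither passed the test with IL-4 (-0.19 ± 0.23 and -0.26 ± 0.11).

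**Figure D3:**
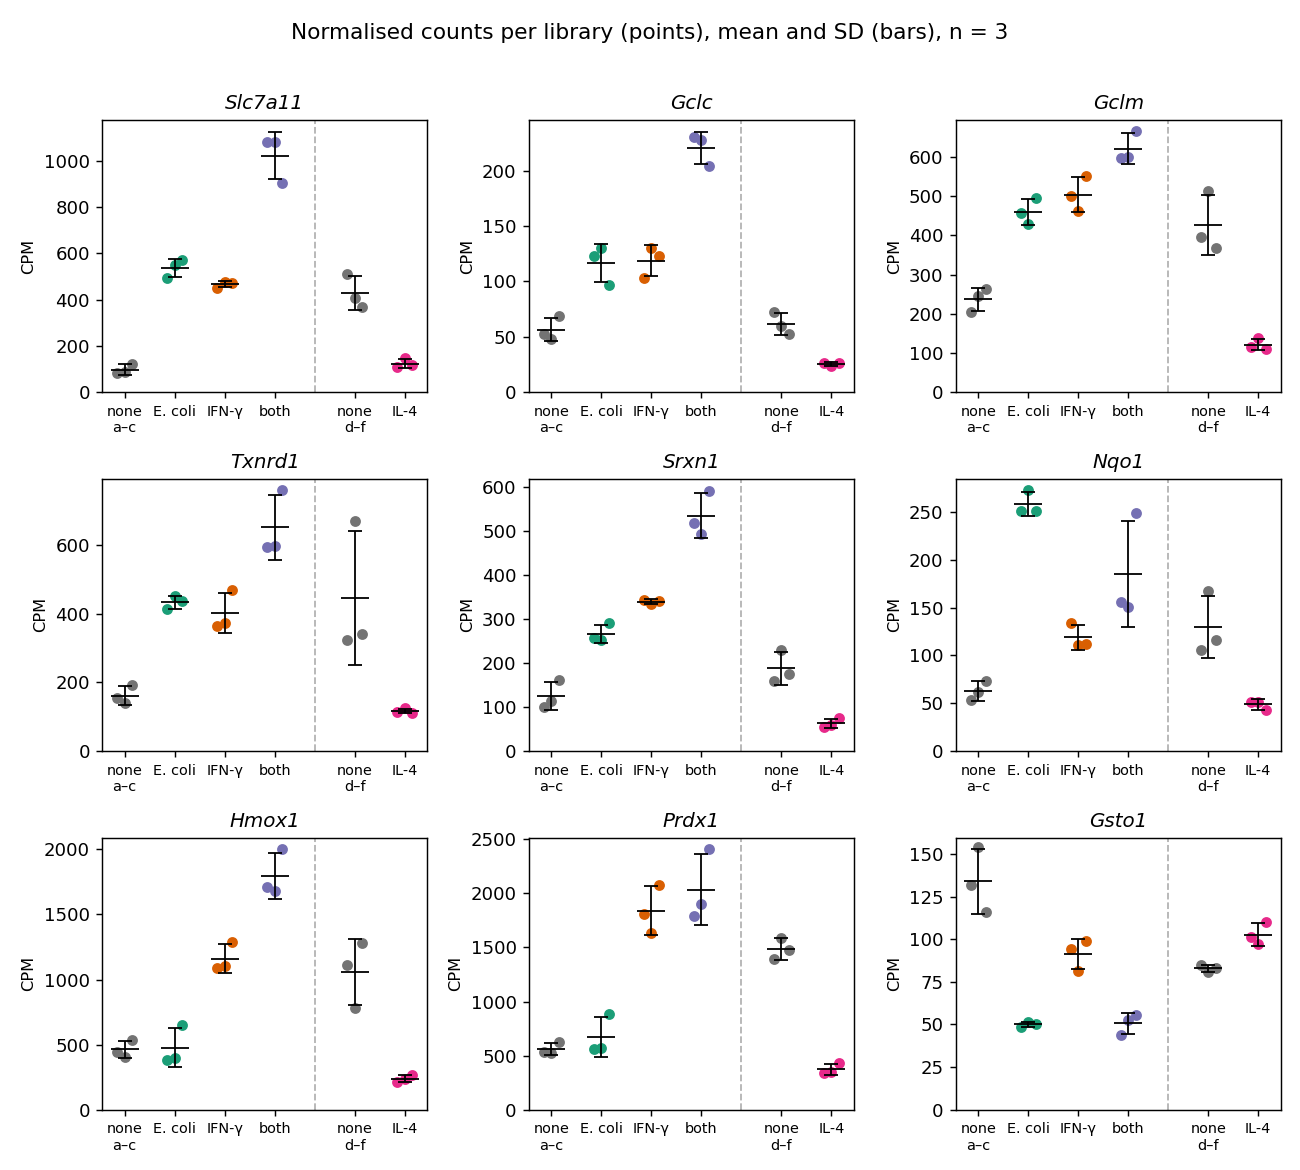
CPM of each library (points), with mean and SD of 3 libraries (bars), for 9 of the genes. Left of the dashed line stands the 12-library set and right of it the 6-library set, which was normalised apart. The first 8 genes are higher with both stimuli than without a stimulus and lower with IL-4, and *Gsto1* is lower with *E. coli* and with both.

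The glutathione transferases did not follow 1 direction. *Gsto1*, an omega class transferase with thiol transferase and dehydroascorbate reductase activity, was at 132, 154 and 116 CPM without a stimulus, 48.5, 51.5 and 50.4 CPM with *E. coli*, 94, 81.5 and 98.7 CPM with IFN-γ, and 43.8, 52.6 and 55.4 CPM with both. All stimulated libraries lay below the unstimulated ones, and those with *E. coli* lay below those with IFN-γ alone whether or not IFN-γ was also given. The log2 fold changes were -1.41 ± 0.13, -0.55 ± 0.13 and -1.39 ± 0.14 (adjusted p = 1.94e-07, 0.00295 and 1.29e-07). With IL-4 it was at 101, 97 and 110 CPM against 84.7, 81 and 82.9 CPM, without overlap, and did not pass the test (0.31 ± 0.12, adjusted p = 0.143).

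*Gstm1*, a mu class transferase, was at 50.3, 54.5 and 49.6 CPM without a stimulus, 26.9, 18.4 and 42 CPM with *E. coli*, 55.4, 73.3 and 60.2 CPM with IFN-γ, and 69.4, 89.3 and 106 CPM with both. It was thus lower with *E. coli* (log2 fold change -0.85 ± 0.22, adjusted p = 0.00682) and higher with both (0.78 ± 0.21, adjusted p = 0.00425). The former call was lost without *E. coli* replicate 2 (-0.58, adjusted p = 0.057). With IL-4 it fell from 86.7, 96.7 and 108 CPM to 35.2, 35.2 and 49.5 CPM (-1.29 ± 0.17, adjusted p = 0.00121). The microsomal transferase gene *Mgst1* was the only one of the 35 to rise with IL-4, from 81.1, 77 and 100 CPM to 136, 129 and 144 CPM (0.66 ± 0.14, adjusted p = 0.013), a call that was lost without any 1 of the IL-4 libraries (adjusted p of 0.0551 to 0.072). It rose with both stimuli as well (0.66 ± 0.12, adjusted p = 0.000258), and the responses to IL-4 and to both stimuli differed by -0.05 ± 0.18.

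The genes of the glutathione peroxidases, enzymes that spend glutathione on peroxides, were lower or did not pass the test. *Gpx1*, the abundant cytosolic form, was at 1430, 2200 and 1440 CPM without a stimulus, 1210, 1040 and 1250 CPM with *E. coli*, 1290, 1160 and 1260 CPM with IFN-γ, and 695, 666 and 727 CPM with both. The libraries with both stimuli lay below all others, by a log2 fold change of -1.28 ± 0.15 against unstimulated cells (adjusted p = 9.33e-07), which became -2.33 on conversion for the ceiling. Its falls with *E. coli* (-0.53) and with IFN-γ (-0.45) were not called without unstimulated b, the library at 2200 CPM (-0.28 and -0.19, adjusted p = 0.0667 and 0.21), and were -1.03 and -1.21 on conversion. The former was also lost without *E. coli* replicate 2 and the latter without any 1 IFN-γ library (adjusted p of 0.0514 to 0.114). *Gpx4*, which reduces lipid peroxides, fell with both stimuli (-0.46 ± 0.13, adjusted p = 0.00617), a call lost without unstimulated b (-0.25, adjusted p = 0.0522). With IL-4, *Gpx1* was at 2750, 2650 and 3060 CPM against 2830, 3080 and 3090 CPM (-0.09 ± 0.10, adjusted p = 0.643). *Gpx4* had only 32 to 68 counts there, against 831 to 2262 in the other set, and shares near-identical stretches with 2 other annotated genes.

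The genes of the thioredoxin system rose with IFN-γ, most with both stimuli, and those of its reductase and sulfiredoxin fell with IL-4. *Txnrd1*, thioredoxin reductase, was at 154, 139 and 191 CPM without a stimulus, 414, 452 and 436 CPM with *E. coli*, 365, 372 and 468 CPM with IFN-γ, and 596, 598 and 761 CPM with both. Libraries with both stimuli lay above those with 1, which lay above the unstimulated ones, and the log2 fold changes were 1.42, 1.31 and 2.01, each ± 0.14 (adjusted p = 3.46e-07, 9.03e-07 and 1.22e-09). With IL-4 it was at 114, 124 and 112 CPM against 325, 672 and 342 CPM, where unstimulated e stood apart (-1.94 ± 0.25, adjusted p = 0.00107). *Srxn1*, sulfiredoxin, which restores overoxidised peroxiredoxins, was at 101, 114 and 161 CPM without a stimulus, 256, 252 and 290 CPM with *E. coli*, 344, 334 and 341 CPM with IFN-γ, and 518, 494 and 592 CPM with both. It followed the order of *Txnrd1*, with log2 fold changes of 1.08, 1.43 and 2.09, each ± 0.14 (adjusted p = 1.25e-05, 3.92e-07 and 9.78e-10). With IL-4 *Srxn1* fell from 159, 230 and 175 CPM to 55.5, 59.6 and 74.9 CPM (-1.58 ± 0.17, adjusted p = 0.000426). *Txn1*, thioredoxin itself, rose with IFN-γ (0.81 ± 0.12, adjusted p = 3.14e-05) and with both (1.15 ± 0.12, adjusted p = 1.98e-07). With *E. coli* it was called on conversion for the ceiling (0.43, adjusted p = 0.00909) but not as deposited (0.26), and with IL-4 its libraries at 450 to 535 CPM overlapped the unstimulated ones at 451 to 661 CPM.

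The peroxiredoxins, which remove hydrogen peroxide, divided by member. *Prdx1* was at 531, 527 and 622 CPM without a stimulus, 557, 570 and 888 CPM with *E. coli*, 1810, 1630 and 2080 CPM with IFN-γ, and 1790, 1900 and 2410 CPM with both. The *E. coli* libraries overlapped the unstimulated ones (log2 fold change 0.26 ± 0.17, adjusted p = 0.263), with replicate 3 high. The rise was 1.72 ± 0.17 (adjusted p = 3.62e-07) with IFN-γ and 1.86 ± 0.17 (adjusted p = 4.93e-08) with both, and 2.43 and 2.7 on conversion for the ceiling. With IL-4 *Prdx1* was at 339, 352 and 432 CPM against 1390, 1590 and 1480 CPM, a 3.97-fold fall (-1.99 ± 0.13, adjusted p = 2.63e-05). *Prdx6*, which also reduces phospholipid hydroperoxides, rose by 1.21 ± 0.13 and 1.53 ± 0.13 with IFN-γ and with both (adjusted p = 5.96e-07 and 1.15e-08) and fell with IL-4 (-0.64 ± 0.11, adjusted p = 0.00421). *Prdx5* rose by 0.88 ± 0.13 and 1.14 ± 0.13 (adjusted p = 3.4e-05 and 7.3e-07), or by 1.36 and 1.85 on conversion for the ceiling. Its IL-4 libraries were at 2240 to 2400 CPM against 2140 to 2780 CPM, overlapping.

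The mitochondrial *Prdx3* went the other way. It was at 42.5 to 51 CPM without a stimulus and at 23.4, 24.7 and 26.4 CPM with both, without overlap (-0.94 ± 0.16, adjusted p = 7.29e-05). Its smaller fall with IFN-γ (-0.43 ± 0.15, adjusted p = 0.0335) was lost without unstimulated a or b or IFN-γ replicate 2 or 3, with an adjusted p of 0.182 at most. *Prdx2* was called lower with *E. coli* (-0.83 ± 0.28, adjusted p = 0.0276) although its libraries, at 13.1 to 25.7 CPM, overlapped the unstimulated ones at 23.4 to 38.8 CPM, and the call was lost without any of 4 libraries, unstimulated a or c and *E. coli* replicate 1 or 2 (adjusted p of 0.0672 to 0.155). *Prdx4*, the form of the endoplasmic reticulum, was at 7.34 to 15.5 CPM in all libraries and was called with no stimulus.

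Of the enzymes that remove superoxide and hydrogen peroxide directly, *Sod2* had the largest changes in the 12-library set and *Cat* in the 6-library set. This mitochondrial superoxide dismutase was at 387, 324 and 371 CPM without a stimulus, 432, 431 and 807 CPM with *E. coli*, 559, 542 and 600 CPM with IFN-γ, and 724, 860 and 1160 CPM with both. The groups did not overlap the unstimulated one, and *E. coli* replicate 3 stood far above its own group. The log2 fold change was 1.34 ± 0.20 with both (adjusted p = 2.4e-05), 0.65 ± 0.20 with IFN-γ (adjusted p = 0.0198) and 0.62 ± 0.20 with *E. coli* (adjusted p = 0.0253). Without *E. coli* replicate 3 the last was 0.26 (adjusted p = 0.228), and without unstimulated a, b or c it missed the threshold at 0.051 to 0.073. The IFN-γ call missed it without unstimulated b or IFN-γ replicate 3 (adjusted p = 0.0566 and 0.0552). *Sod2* fell with IL-4 (-0.49 ± 0.12, adjusted p = 0.0312), lost without unstimulated f or any 1 IL-4 library (adjusted p of 0.0573 to 0.163). *Sod1*, the cytosolic form, rose by 0.31 ± 0.12 with both (adjusted p = 0.0421) with overlapping groups, and this call was lost without unstimulated a or c or combined replicate 2 or 3 (adjusted p of 0.0671 to 0.163). *Cat*, catalase, fell with IL-4 from 672, 1450 and 665 CPM to 390, 434 and 406 CPM (-1.18 ± 0.26, adjusted p = 0.0187). Unstimulated e was the high library, and leaving out any 1 IL-4 library gave adjusted p-values of 0.0702 to 0.0931.

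Among the enzymes that supply NADPH, *Me1*, cytosolic malic enzyme, changed most. It was at 2.98, 2.54 and 1.65 CPM without a stimulus, 2.45, 3.68 and 3.95 CPM with *E. coli*, 5.6, 5.64 and 5.89 CPM with IFN-γ, and 11.7, 13.1 and 17.1 CPM with both, which is 4 to 26 counts. Libraries with both stimuli lay above all others, by a log2 fold change of 2.52 ± 0.35 against unstimulated cells (adjusted p = 8.04e-06) and of 1.29 ± 0.31 against IFN-γ (adjusted p = 0.00979). The rise with IFN-γ (1.23 ± 0.40, adjusted p = 0.0243) was lost without unstimulated c or any 1 IFN-γ library (adjusted p of 0.0503 to 0.0934). With IL-4 it was at 1.52, 2.66 and 2.07 CPM against 4.17, 6.13 and 10.8 CPM (-1.75 ± 0.44, adjusted p = 0.0311), lost without unstimulated f (-1.31, adjusted p = 0.122) or any 1 IL-4 library (adjusted p of 0.0774 to 0.14).

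*G6pdx* and *Pgd* encode the dehydrogenases of the oxidative pentose phosphate pathway. *G6pdx* was at 367 to 403 CPM without a stimulus, 508 to 536 CPM with IFN-γ and 495 to 573 CPM with both, and rose by 0.43 ± 0.10 and 0.47 ± 0.10 (adjusted p = 0.00332 and 0.00087). *Pgd* was at 465 to 490 CPM without a stimulus, 723 to 795 CPM with IFN-γ and 683 to 754 CPM with both, and rose by 0.68 ± 0.10 and 0.62 ± 0.10 (adjusted p = 3.1e-05 and 4.8e-05). Its rise with *E. coli* of 0.30 ± 0.10 (adjusted p = 0.0278) was lost without unstimulated a or c or *E. coli* replicate 1 or 3 (adjusted p of 0.067 to 0.0785). With IL-4 *G6pdx* fell from 453 to 526 CPM to 219 to 294 CPM (-0.89 ± 0.14, adjusted p = 0.00271). *Pgd* fell by 0.81 ± 0.18 on the log2 scale (adjusted p = 0.0178), lost without any 1 IL-4 library (adjusted p of 0.0663 to 0.0828). In the non-oxidative branch *Taldo1*, transaldolase, fell with IL-4 from 1750, 1990 and 1660 CPM to 974, 990 and 1120 CPM (-0.81 ± 0.12, adjusted p = 0.00196), whereas *Tkt*, transketolase, was at 421 to 512 CPM against 371 to 488 CPM and was called with no stimulus. On conversion for the ceiling both were called lower with IFN-γ and *E. coli*, *Taldo1* by -0.36 (adjusted p = 0.0093) and *Tkt* by -0.28 (adjusted p = 0.0368), where the counts as deposited gave -0.12 and -0.20. That conversion also called *G6pdx* higher with *E. coli* (0.29, adjusted p = 0.0337, against 0.24 as deposited).

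Cells given both stimuli were also compared with those given 1. Against IFN-γ 8 of 34 genes were higher and 2 lower, where 6.25% and 5.98% of all genes were. Against *E. coli* 18 were higher and 3 lower, where 17.5% and 15.3% of all genes were. *Hmox1*, *Gclc*, *Slc7a11*, *Txnrd1*, *Srxn1*, *Sod2* and *Me1* were higher with both than with each alone, and *Gpx1* was lower than with each. For *Slc7a11* the difference was 1.13 ± 0.13 against IFN-γ (adjusted p = 1.03e-05) and 0.92 ± 0.13 against *E. coli* (adjusted p = 1.96e-05). For *Gclc* it was 0.90 ± 0.14 (adjusted p = 0.000245) and 0.92 ± 0.14 (adjusted p = 3.84e-05). The calls against IFN-γ for *Hmox1* (0.62), *Nqo1* (0.64) and *Sod2* (0.69) depended on single libraries, with adjusted p-values of up to 0.0928 for *Hmox1* without IFN-γ replicate 1 or 2 or combined replicate 3, up to 0.107 for *Nqo1* without IFN-γ replicate 2 or 3 or combined replicate 3, and up to 0.126 for *Sod2* without any of 5 libraries. Against *E. coli*, *Nqo1* was lower with both (-0.48 ± 0.16, adjusted p = 0.0258), a call lost without *E. coli* replicate 2 or combined replicate 1 or 2 (adjusted p of 0.0832 to 0.146). The calls of *Sod2*, *Pgd* and *Fth1* against *E. coli* were lost without 3, 4 and 1 of the 6 libraries, with adjusted p-values of up to 0.0607, 0.0791 and 0.0555, among them *E. coli* replicate 2 for each. On conversion for the ceiling the difference of *Hmox1* against IFN-γ was 0.95, and *Fth1*, *Txn1*, *Prdx5* and *Taldo1* were called against IFN-γ as well.

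A test of the interaction asked whether the effect of *E. coli* on the log2 scale was the same with and without IFN-γ. It differed for 5 of 34 genes. The difference was negative for 4, which rose less with *E. coli* in the presence of IFN-γ, and positive for 1. Of all genes 2.04% had a called negative difference and 2.58% a called positive one, whatever the direction of their response to *E. coli*. *Nqo1* rose with *E. coli* by 2.05 without IFN-γ and by 0.64 with it, a difference of -1.41 ± 0.24 (adjusted p = 0.00167). *Slc7a11* rose by 2.47 and by 1.13, a difference of -1.34 ± 0.19 (adjusted p = 0.000466). The differences of *Txnrd1* (-0.72 ± 0.19, adjusted p = 0.0347) and *Gclm* (-0.65 ± 0.16, adjusted p = 0.0257) missed the threshold without any of 7 and 6 of the 12 libraries, with adjusted p-values of up to 0.103 and 0.0815. *Gstm1* was lower with *E. coli* alone and did not pass the test for *E. coli* in the presence of IFN-γ (0.48 ± 0.21, adjusted p = 0.145), a difference of 1.34 ± 0.31 (adjusted p = 0.015). On conversion for the ceiling *Ftl1* (-0.74) and *Pgd* (-0.49) were called too. *Gclc* did not pass this test (-0.14 ± 0.20, adjusted p = 0.801).

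**Figure D4:**
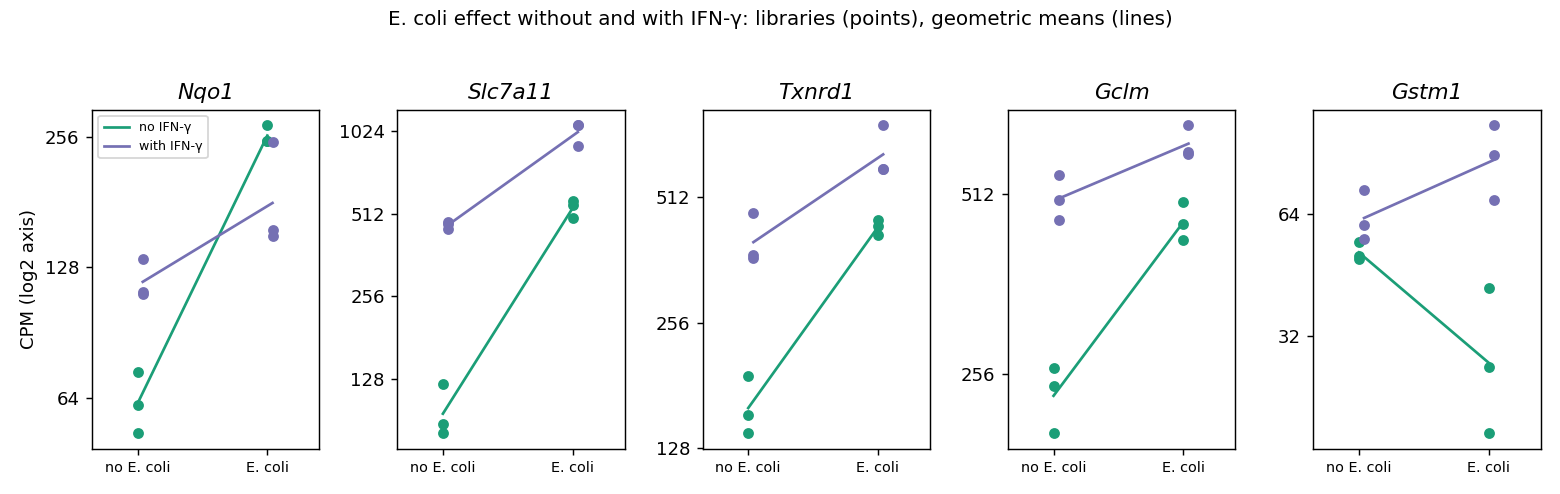
CPM on a log2 axis without and with *E. coli*, in cells without IFN-γ (green) and with IFN-γ (purple), for the 5 genes with a called interaction. Points are libraries and lines join geometric means. The green line is steeper than the purple one for *Nqo1*, *Slc7a11*, *Txnrd1* and *Gclm*, and for *Gstm1* it runs downwards.

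IFN-γ and *E. coli* were also compared with each other directly. With IFN-γ 12 of 34 genes were higher than with *E. coli* and 1 lower, where 14.1% and 11.5% of all genes were. The higher ones were *Keap1*, *Hmox1*, *Blvrb*, the transferases *Gstm1*, *Gsto1* and *Mgst1*, *Txn1*, the peroxiredoxins *Prdx1*, *Prdx5* and *Prdx6*, *Cat* and *Pgd*, and the lower one was *Nqo1*. *Prdx1* differed by 1.46 ± 0.17 (adjusted p = 2.07e-06) and *Hmox1* by 1.29 ± 0.17 (adjusted p = 1.17e-05). No gene of glutathione synthesis or cystine uptake passed this test, and the difference of *Gclc* was 0.02 ± 0.14 and that of *Slc7a11* -0.21 ± 0.13. The call of *Cat* (0.45 ± 0.16, adjusted p = 0.0488) was lost without any *E. coli* library or without IFN-γ replicate 1 or 3 (adjusted p of up to 0.327).

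The responses to IL-4 and to IFN-γ with *E. coli* share no library. Of the 34 genes tested in both sets, 16 rose with both stimuli and fell with IL-4 (47.1%), against 191 of 9201 genes (2.08%). They were 16 of the 24 that rose with both stimuli and 16 of the 18 that fell with IL-4. The 16 include *Fth1*, whose counts in the 12-library set lie close to 4096. The other 2 that fell with IL-4 were *Cat* and *Taldo1*. In 1 fit over the 18 libraries, with a separate unstimulated group for each set, the response to IL-4 was below that to both stimuli for 25 of 35 genes and above it for 2, *Gsto1* and *Gpx1*, where 20.7% and 18.5% of all genes were. The difference was -5.25 ± 0.23 for *Slc7a11* (adjusted p = 5.4e-13), -4.15 ± 0.27 for *Hmox1* (adjusted p = 1.55e-10), -4.01 ± 0.29 for *Txnrd1* (adjusted p = 7.16e-10) and -3.91 ± 0.24 for *Prdx1* (adjusted p = 4.36e-11). The sets differ in layout and in the highest counts reached, which cannot be told apart from the stimuli in the size of these differences, although each response was taken within its own set. The calls of *Gss*, *Gsr* and *Gpx3* were lost without any of 3, 5 and 8 libraries (adjusted p of up to 0.082, 0.162 and 0.143). The summed macrophage markers were also higher with both stimuli and lower with IL-4 than in the unstimulated libraries of the same set, and their part in this pattern was not tested.

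**Figure D5:**
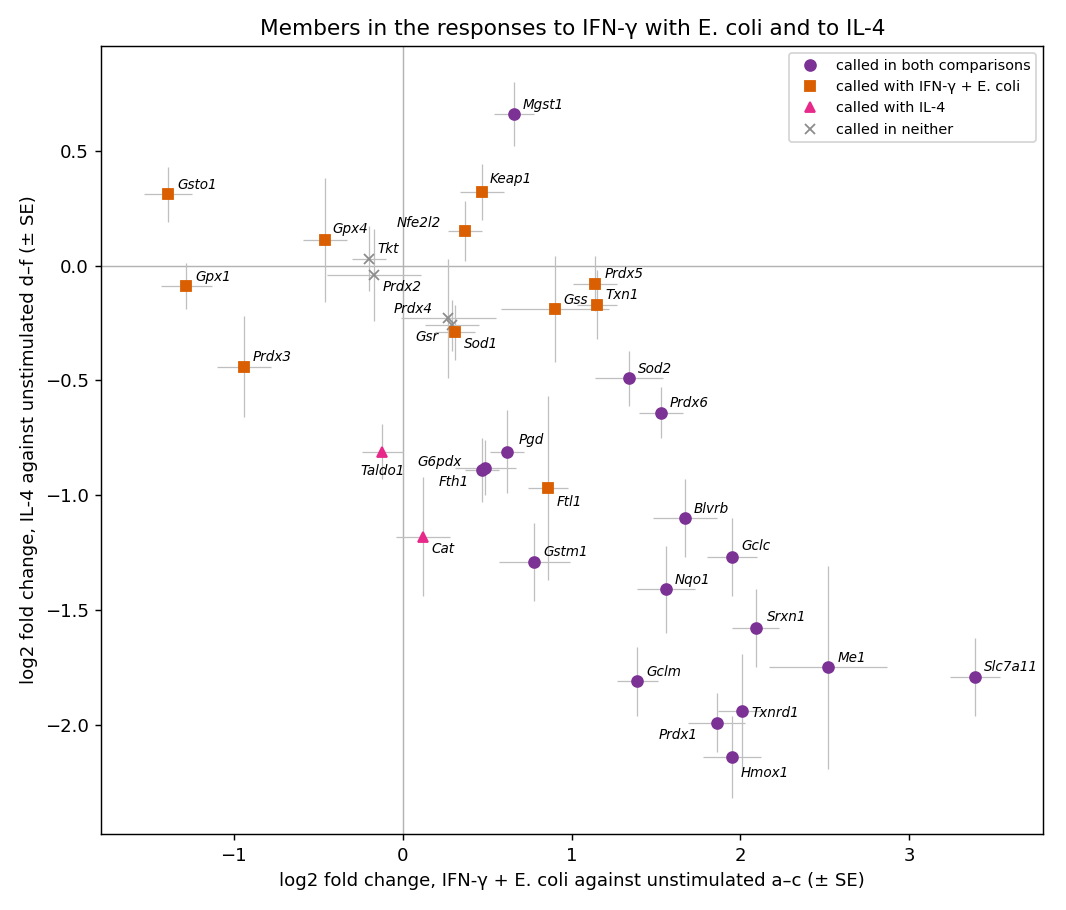
Log2 fold change with IFN-γ and *E. coli* (x axis) against that with IL-4 (y axis) for the 34 genes tested in both sets, with SE bars, and symbols for the comparison in which a gene was called. The 16 genes called higher with both stimuli and lower with IL-4 lie at the lower right, and *Mgst1* is the gene called higher in both.

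Related genes were listed to set beside the 35, and 98 of 99 symbols matched 1 Ensembl gene. Of the 67 tested in the 12-library set, 15 rose and 21 fell with *E. coli*, where 13.5% and 16.7% of all genes did. With IFN-γ 20 rose and 20 fell, against 15.6% and 16%, and with both 22 and 24, against 23.9% and 25.2%. Of the 76 tested in the 6-library set 3 rose and 12 fell, against 5.97% and 4.35%. Their median log2 fold changes were -0.09, -0.03, -0.01 and -0.12. *Maff*, a small MAF partner of NRF2, rose from 1.35 ± 0.276 CPM (SD, n = 3) to 18.4 ± 1.10 with *E. coli*, to 20.8 ± 7.28 with IFN-γ and to 87.1 ± 8.06 CPM in the combined libraries (log2 fold change 5.95 ± 0.29, adjusted p = 7.42e-12). *Tfrc*, the transferrin receptor, rose from 14.9 ± 4.10 to 201 ± 19.3 CPM with both (3.70 ± 0.22, adjusted p = 1.06e-10). *Akr1b8*, an aldose reductase relative, rose by 2.98 ± 0.27 with both (adjusted p = 3.54e-08) and fell by 2.91 ± 0.39 on the log2 scale with IL-4 (adjusted p = 0.00119). With IL-4 *Ptgr1*, prostaglandin reductase, fell by 2.19 ± 0.24 (adjusted p = 0.000395) and *Abcc1*, an exporter of glutathione conjugates, by 1.67 ± 0.19 (adjusted p = 0.000426). The 3 that rose with IL-4 were *Mgst2* (1 ± 0.27, adjusted p = 0.0416), *Oxr1* (0.9 ± 0.16, adjusted p = 0.00662) and *Mt2* (0.65 ± 0.16, adjusted p = 0.0254). *Msrb2*, a mitochondrial methionine sulfoxide reductase, fell with both stimuli from 7.73 ± 1.56 to 1.29 ± 0.184 CPM (-2.51 ± 0.48, adjusted p = 0.000264), and *Idh2*, mitochondrial NADP-dependent isocitrate dehydrogenase, from 13.2 ± 5.57 to 2.41 ± 1.44 CPM (-2.46 ± 0.50, adjusted p = 0.000448).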

How the data were processed

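RNA of 18 eosinophil libraries was analysed. The authors deposited whole-number counts for each Ensembl gene, 1 file per library, with no normalization. The paper's methods and the submitters' processing notes name CEL-Seq2 libraries, fastp 0.20.1, STAR 2.7.2a, TopHat2 2.1.0, GRCm38 and HTSeq 0.6.1 on uniquely mapped reads, without saying which files each step made or whether identifiers were collapsed. HTSeq summary rows, 21.1% to 39.4% of the counts in the 12-library set and absent from the other, were left out.

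Genes passing filterByExpr (9883 in the 12 libraries of the 12-library set, 10556 in the 6 of the 6-library set) were tested with edgeR 4.0.16 in R 4.3.3 by the quasi-likelihood test with TMM normalization and Benjamini-Hochberg adjustment over all genes, at an adjusted p under 0.05 with no fold threshold. Stimulated libraries were set against the unstimulated ones of their set. The standard error is the size of the log2 fold change over the square root of F. The difference between the responses to IL-4 and to both stimuli used all 18 libraries. Alternatives were DESeq2 1.42.0, its size factors, other filters, a 2-fold threshold, each library left out, all unstimulated libraries as 1 group, only the compared groups, and the replicate number as a block. The conversion for the ceiling, in which a count is taken as the number of the 4096 identifiers seen and the number of molecules is estimated from the share not seen, and the comparison of IFN-γ with *E. coli* were chosen after seeing the data. Precision is limited by depth: 3 counts are 1.1 to 1.97 CPM in the former set and 0.463 to 0.828 in the latter, which covers counting error only. The fits were tested on simulated data.

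The 35 genes, the related genes, the markers and the tests were chosen with earlier results of these data known. Values in every library are given for *Nfe2l2*, *Keap1*, *Hmox1*, *Nqo1*, *Gclc*, *Gclm*, *Srxn1*, *Txnrd1* and *Slc7a11*, for the 4 genes with the largest called change without overlap at a mean of 1 CPM or more in each comparison with unstimulated cells, and for the 4 largest called interactions. Other genes are given where useful. Of the related genes, the 3 largest rises and 3 largest falls per comparison could be named. Gene overlaps and near-identical stretches (95% identity over at least 200 bases) were taken from GENCODE M21. They affected 8 genes (opposite-strand exons: *Keap1*, *Ftl1*, *Gclm*, *Gss*, *Prdx2*, *Prdx5*, *G6pdx*, *Me1*) and 17 genes (near-identical stretches, among them *Ftl1*, *Gclm*, *Slc7a11*, *Prdx1* and *Gpx4*), whose counts are less certain. Replicate libraries differed beyond counting noise in every group.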

Additional observations from a re-analysis of the deposited data

Results flagged for a closer look

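The effect of *E. coli* differed between cells without and with IFN-γ, by the test of the interaction, for 5 of the 34 tested genes. The difference on the log2 scale was -1.41 for *Nqo1*, -1.34 for *Slc7a11*, -0.72 for *Txnrd1* and -0.65 for *Gclm*, where the rise with *E. coli* was smaller in the presence of IFN-γ, and 1.34 for *Gstm1*. For *Nqo1*, *Slc7a11* and *Gstm1* the call was kept on leaving out any 1 of the 12 libraries. Of all genes 2.04% had a called difference in the direction of *Nqo1* and 2.58% in that of *Gstm1*. *Nqo1* was spread most among the libraries with both stimuli, at 156, 151 and 249 CPM. No group held the 4 or more libraries of 1 set that a check for single outlying libraries needs.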

How the results depend on the processing

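Requiring a 2-fold change left 6 of 13 calls with *E. coli*, 10 of 23 with IFN-γ, 16 of 28 with both stimuli, 12 of 19 with IL-4, 2 of 10 for both against IFN-γ, 8 of 21 for both against *E. coli*, 3 of 5 for the interaction and 6 of 13 for IFN-γ against *E. coli*. In the same order 10.4%, 12%, 22.4%, 4.53%, 4.09%, 13.4%, 2.48% and 10.4% of all genes were called with that threshold. Treating all 6 unstimulated libraries as 1 group, which mixes the sets, called 7 genes for *E. coli* (2 higher and 5 lower), 8 for IFN-γ (6 and 2), 13 for the combination (10 and 3) and 9 for IL-4 (2 and 7), of which 5, 8, 13 and 6 were calls of the fits within a set. Of all genes 20.3%, 20.3%, 35.8% and 15.6% were called in this way. The mixed group turned *Sod2* to -0.58, -0.54 and 0.17 (*E. coli*, IFN-γ and IL-4), *Prdx5* to -0.17 and *Me1* to -0.07 with IFN-γ, *Fth1* to -1.70 and *Gpx4* to 0.59 with both, and *Gpx4* to -5.06 with IL-4. Conversion for the ceiling turned *Fth1* to 0.68 with *E. coli*, a value that differences of 1 count near the limit set and that is not to be read as a change. Leaving out 1 library gave 10 to 14 genes with *E. coli*, 18 to 21 with IFN-γ, 25 to 28 with both, 14 to 20 with IL-4, 7 to 11 and 17 to 23 for both against IFN-γ and against *E. coli*, 3 to 6 for the interaction, 12 to 14 for IFN-γ against *E. coli* and 24 to 27 for the difference of the responses. The shares of all genes called were, in that order, 21.5% to 27.2%, 22.1% to 28.1%, 42% to 45.9% and 4.46% to 12.8% for the 4 stimuli. For the other comparisons they were 7.25% to 11%, 24.7% to 29.6%, 2.64% to 5.52%, 19.4% to 22.3% and 33.1% to 38.9%. The interaction gave 3 genes without unstimulated a, *E. coli* replicate 1, IFN-γ replicate 3, or combined replicate 1 or 2. The stimulated libraries carry replicate numbers 1 to 3. Same-numbered libraries correlated by -0.045 to 0.331 between IFN-γ and both and by 0.071 to 0.163 between *E. coli* and both. Differently numbered ones correlated by -0.377 to 0.266 and by -0.238 to 0.197. These ranges overlap and do not settle whether the numbers mark pairs, and the main fits did not use them. With the replicate number as a block 16 genes were called for both against IFN-γ, including the 10 called without it, where 15.1% of all genes were. The count against *E. coli* stayed within 1.5 times. Other normalizations, DESeq2, other filters and fits of the compared groups only kept every count within 1.5 times. The cause of these changes was not tested.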
